A study of Mus musculus with 24 samples.

Results

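RNA levels were compared between cells of the mouse C2C12 line kept in DM and cells kept in GM, both at 5 mM glucose. C2C12 is an established line of skeletal myoblasts, the mononucleate precursors of muscle fibres. Sample titles chose the members, namely DM_5mM replicates 1 to 3 and GM_5mM replicates 1 to 3. These 6 cultures were each hybridised to 2 array designs, MA and MB, and so supplied 12 of the 24 arrays of the series, the other 12 being the same media at 25 mM glucose. The labels give the media as abbreviations only. For C2C12 cells such abbreviations usually mean growth medium (GM) and differentiation medium (DM). Genotype and treatment were otherwise not varied between the groups, and the sources used here give neither hours in medium nor serum content. All 6 cultures come from one line and nothing says that replicates were grown separately, so p-values measure the spread between these samples, which may be technical. The series asks how calorie restriction bears on the differentiation of muscle precursors, and the comparison described here is the medium change at the lower glucose level.

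As background, cultured myoblasts proliferate in serum-rich medium and leave the cell cycle when growth factors are withdrawn. Factors of the MyoD family, with MEF2 proteins, then activate genes of the contractile apparatus, and the mononucleate cells align and fuse into multinucleate myotubes. Id proteins hold back that programme by binding the partners of the MyoD family, and CDK inhibitors together with the retinoblastoma protein keep the nuclei of myotubes out of S phase.

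Each value is the deposited linear intensity of a probe set, a group of short probes for one transcript. Levels below are listed in the order of replicates 1, 2 and 3, and the level of one gene's probe set cannot be set against that of another gene's. A log2 change is DM minus GM on log2(intensity + 20), where the pseudocount of 20 makes the change of a dim gene smaller. The change is given with its standard error (SE), and a gene is called higher or lower where its Benjamini-Hochberg adjusted p from limma was under 0.05. After a filter on low intensities, 12851 genes were tested.

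The cultures did not stand alike on the arrays' control probe sets. The MA control for 18S ribosomal RNA read 33.3 and 39.5 in GM_5mM-1 and GM_5mM-2 and 23.0 in DM_5mM-2, and 445 to 915 in GM_5mM-3, DM_5mM-1 and DM_5mM-3. These are called low-18S and high-18S cultures below. The bacterial spike controls had a median of 130 to 139 where 18S was low and of 367 to 695 elsewhere, and the brightest per mille of MA intensities began at 4901 to 5960 against 9758 to 10583. Since GM holds 2 low-18S cultures and DM holds 1 at 5 mM, counts or medians below are also given without them for some lists. At 25 mM glucose DM_25mM-3 was a low-18S culture too (18S 48.1), and fits without the low-18S cultures left it out as well. The labelled cell type was checked against its markers. All 6 myoblast markers (Myod1, Myf5, Des, Cdh15, Ncam1, Pax7) passed the filter. Their summed MA intensity was 3633 to 4392 in GM and 6063 to 8029 in DM. The 5 markers of differentiated muscle (Myog, Myh3, Acta1, Ckm, Tnnc2) summed to 74.7 to 131 in GM and 16677 to 30061 in DM.

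DM against GM called 2977 genes, 23.2 percent of those tested. Of these 1221 were higher in DM (9.5 percent of genes tested) and 1756 were lower (13.7 percent). These shares are the background for every count in the gene lists below, and on a short list a count near them says little. A change of at least 2-fold was reached by 565 of the called genes that rose and 716 of those that fell. The largest changes were rises: 103 genes rose at least 8-fold and 13 fell at least 8-fold. The median over all genes was -0.03. Counted as probe sets, of which 27081 were tested, 2037 were higher (7.52 percent) and 2740 lower (10.1 percent). The 3 DM cultures lay wholly above the 3 GM cultures for 2013 genes (15.7 percent) and wholly below them for 2753 (21.4 percent). Without the low-18S cultures, which leaves GM_5mM-3 alone in its group and assumes that it varies like the other groups, 783 of the 1221 and 890 of the 1756 genes were still called.

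**Figure D1:**
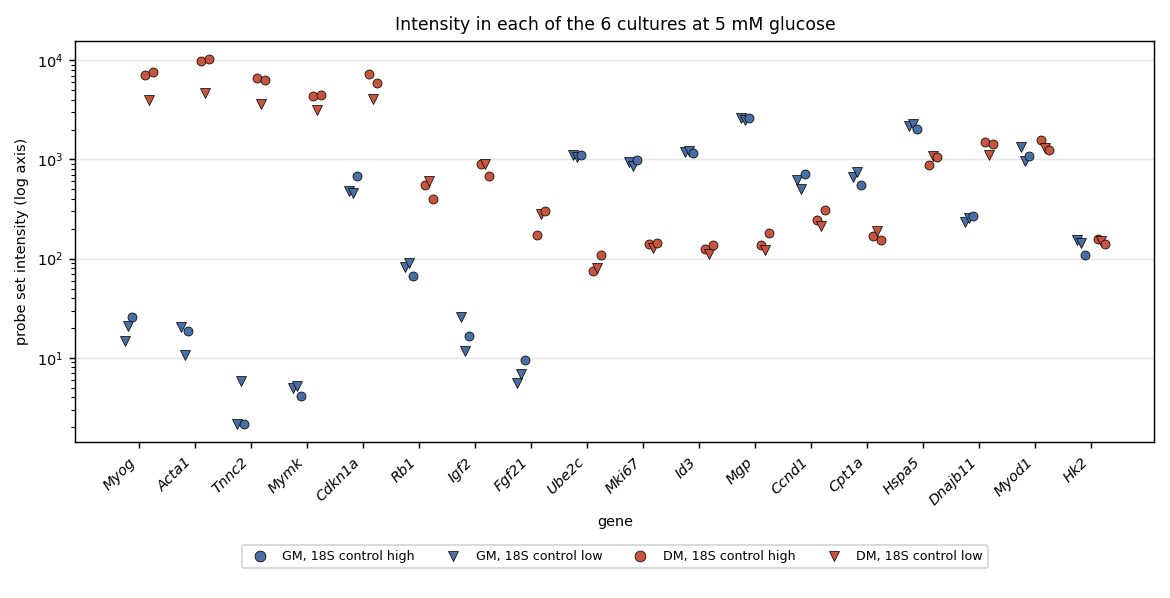
Deposited intensity, on a log axis, of selected genes in each of the 6 cultures at 5 mM glucose, with GM and DM in separate colours and the low-18S cultures as triangles. Myog read 14.9 to 26.1 in GM and 3964 to 7622 in DM, while Ube2c read 1064 to 1104 in GM and 75 to 109 in DM.

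The regulators of the muscle programme divided into those present in both media and those that appeared in DM. Myog encodes myogenin, the MyoD family member that drives terminal differentiation, and its intensity was 14.9, 20.8 and 26.1 in GM and 7165, 3964 and 7622 in DM. The groups lay far apart, with the low-18S culture DM_5mM-2 the lowest of the DM group. The log2 change was 7.22 (SE 0.26, adjusted p = 9e-11). Myod1, the founding member of the family, read 1341, 976 and 1077 in GM and 1565, 1318 and 1252 in DM, and these ranges overlapped. Its change of 0.29 was not called (adjusted p = 0.14), and the same holds for Myf5 (-0.38) and Pax7 (0.07), the marker of muscle stem cells. Among the DNA-binding partners, Mef2a read 288, 308 and 248 in GM and 1345, 1453 and 1564 in DM and rose by 2.29 (SE 0.12, adjusted p = 4.8e-09). Mef2c, listed at 1.04 to 2.55 in GM, reached 56.8 to 95.9 in DM, a log2 change of 2.2. Smyd1, a muscle histone methyltransferase needed for myofibril assembly, rose by 3.34. Tead4 (2.1), Mef2d (1.38) and Srf (0.75) were also called. In all, 7 of the 15 tested myogenic transcription factors were higher, none was lower, and their median was 0.29.

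Genes of the sarcomere, the contractile unit of muscle, were among the largest rises. In the thick filament, built of myosin and its anchoring proteins, 17 of 20 tested genes were called higher and none lower. Their median log2 change was 3.73 against -0.03 over all genes. Of 24 members on the arrays, these 20 passed the filter. Their median intensity in GM was 10.3, under the MA filter of 35.5. Many thus passed through DM, and the count and median are not independent of the filter. Mylpf, the fast regulatory light chain, was among the genes with the largest changes: its intensity was 1.88, 7.33 and 4.12 in GM and 7072, 4147 and 8492 in DM, and the change was 8.02 (SE 0.26, adjusted p = 2.9e-11). The 3 GM cultures sat near the floor of the scale, so the pseudocount sets the size and the rank of such changes: with a pseudocount of 1 Mylpf and the troponin gene Tnnc2 both rose by 10.3, and with 64 they rose by 6.54 and 6.32. Myh3, the embryonic myosin heavy chain, read 0.58, 4.25 and 14.1 in GM and 3816, 2478 and 3082 in DM, a change of 6.91 (SE 0.23, adjusted p = 3.6e-11). The light chains Myl1 and Myl4 rose by 7.51 and 6.43, and Mybph, a myosin-binding protein, by 7.68. Titin (Ttn), the molecular spring of the sarcomere, rose by 6.11, and Unc45b, the chaperone that folds myosin, by 5.94. The adult and perinatal heavy chain genes Myh1, Myh4 and Myh8 are near-identical in sequence, so their probe sets may read one another, and their changes of 4.6, 1.43 (not called) and 2.71 are uncertain. Myh7, the slow heavy chain, rose by 2.48. The genes not called were Mylk2 (-0.63), Mybpc2 (0.07) and Myh4.

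In the thin filament, built of actin, tropomyosin and the troponin complex that senses calcium, 19 of 22 tested genes were called higher and 2 lower, with a median of 3.96. Acta1, skeletal alpha-actin, read 20.5, 10.8 and 18.5 in GM and 9808, 4726 and 10300 in DM, a change of 7.75 (SE 0.45, adjusted p = 9.9e-09). DM_5mM-2 was again the lowest of the DM cultures, though still far above GM. Actc1, cardiac alpha-actin, which is also the form of embryonic muscle, read 30.1, 22.3 and 27.8 in GM and 11579, 5624 and 12683 in DM and rose by 7.66. All 3 troponin subunits were represented: Tnnc2, the calcium-binding subunit of fast fibres, rose by 7.84 (SE 0.24, adjusted p = 1.8e-11), the inhibitory subunits Tnni1 and Tnni2 by 7.16 and 6.03, and the tropomyosin-binding subunits Tnnt3, Tnnt1 and Tnnt2 by 6.29, 4.13 and 3.78. Slow, fast and cardiac forms thus rose together. Lmod3, which starts actin filaments, read 5.07, 6.23 and 54.1 in GM and 2917, 2533 and 3672 in DM and rose by 6.37. Nebulin (Neb), the ruler of the thin filament, rose by 6.08. The 2 members called lower were Tpm3 (-0.96) and Capzb (-0.38), a tropomyosin and a filament capping protein that non-muscle cells also use. For Tpm3 further probe sets were called lower (log2 change -1.13 and -0.85), and another was called higher (0.99). The call on Capzb was lost without the low-18S cultures, where its change was -0.40.

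At the Z-disc, where thin filaments are anchored, 20 of 28 tested genes were higher and 2 lower, with a median of 1.93. The ankyrin repeat proteins Ankrd2 and Ankrd23, which bind titin, rose by 5.94 (SE 0.2, adjusted p = 3.9e-11) and 4.84 (SE 0.27, adjusted p = 4.6e-10). Ankrd2 read 5.89, 1.59 and 3.62 in GM and 1733, 1103 and 1522 in DM. Actn2, the muscle alpha-actinin that crosslinks actin at the Z-disc, rose by 3.97, the small heat shock protein Cryab by 2.49, and the intermediate filament protein desmin (Des) by 1.02. Hspb6 read 1149, 1202 and 1230.4 in GM and 473, 416 and 327 in DM and fell by 1.53 (SE 0.18, adjusted p = 9.8e-06), whereas its family members Hspb2, Hspb3, Hspb7 and Hspb8 were called higher by 1.11 to 2.33. For Pdlim5, a Z-disc adaptor, the brightest probe set fell by 1.93 (SE 0.18, adjusted p = 1.2e-06) while 2 dimmer ones were called higher by 1.58 and 2.31, so its direction depends on the probe set.

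The dystrophin complex and costamere, which tie the sarcomere to the membrane and matrix, had 10 of 20 tested genes higher and 3 lower, with a median of 0.52. Itgb1bp2, the integrin-binding protein melusin, read 5.09, 7.7 and 4.71 in GM and 927, 849 and 1028 in DM and rose by 5.21 (SE 0.17, adjusted p = 2.3e-11). Cav3, the caveolin of muscle membranes, rose by 4.15 (SE 0.19, adjusted p = 8.4e-10). Dystroglycan (Dag1) rose by 2.11, alpha-sarcoglycan (Sgca) by 1.65 and the laminin receptor Itga7 by 1.48. Beta-syntrophins moved apart, with Sntb1 at 2.09 and Sntb2 at -1.59. Talin 2 (Tln2, -0.63) was called lower, but not without the low-18S cultures (adjusted p = 0.35).

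**Figure D2:**
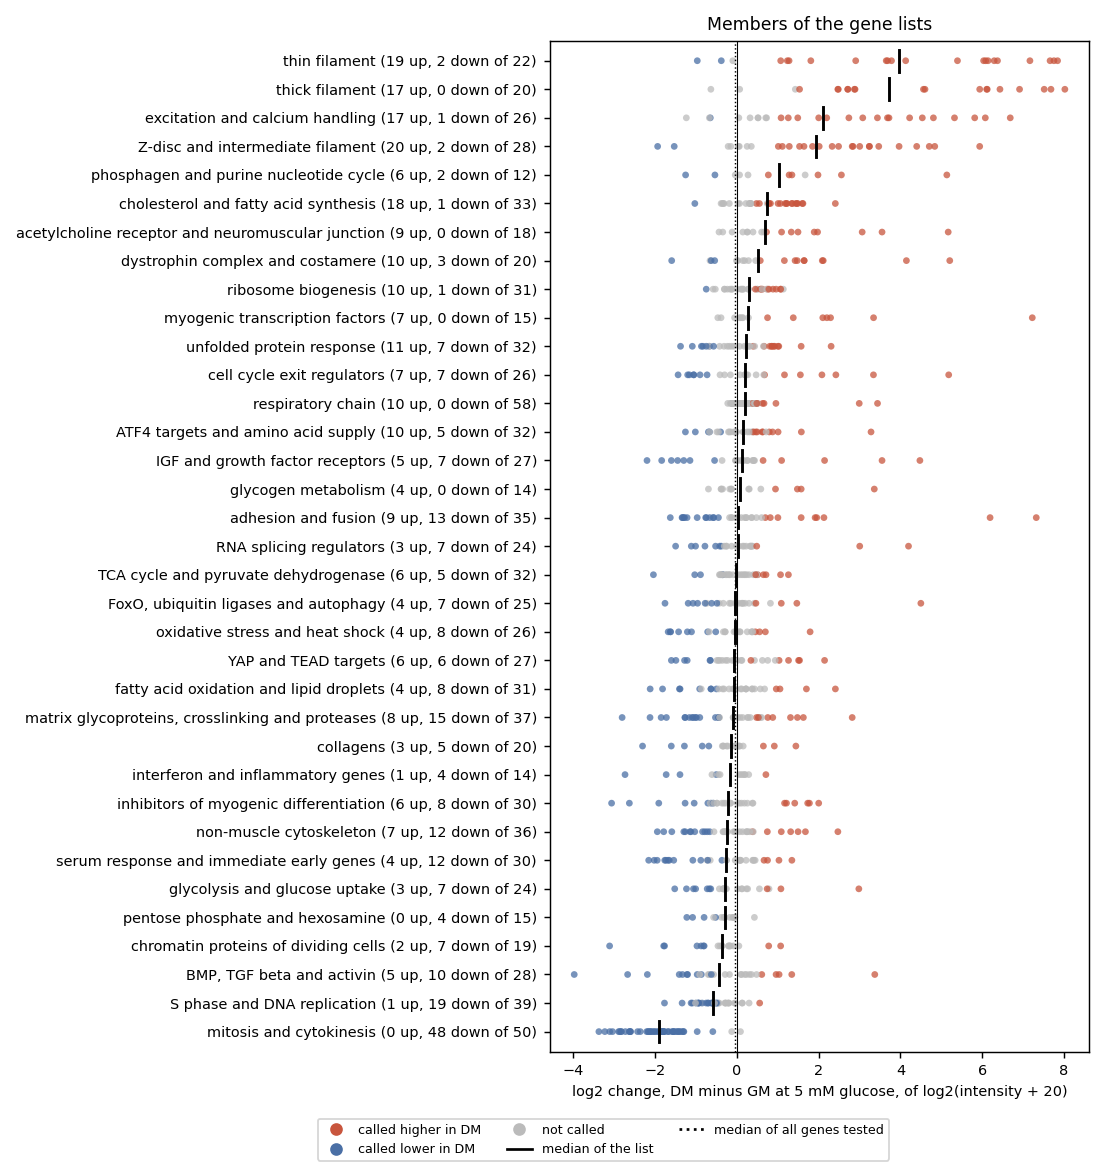
Log2 change, DM minus GM at 5 mM glucose, of every tested member of each gene list, one point per gene and one row per list, coloured by call, with a black bar at the list median and a dotted line at the median of all genes. Thick and thin filament genes have medians of 3.73 and 3.96, and genes of mitosis and cytokinesis a median of -1.90, while most metabolic lists lie near 0.

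Genes that couple the nerve signal to contraction followed the sarcomere. In excitation and calcium handling 17 of 26 tested genes were higher and 1 was lower, with a median of 2.10. Casq2, which stores calcium in the sarcoplasmic reticulum, read 1.9, 12.7 and 2.3 in GM and 2916, 1990.1 and 2919 in DM and rose by 6.68 (SE 0.3, adjusted p = 8.2e-10). Stac3, the adaptor of the voltage sensor, rose by 5.82, the release channel Ryr1 by 4.54 and the voltage sensor itself, Cacna1s, by 3.68. The calcium pump genes Atp2a1 and Atp2a2 rose by 4.81 and 3.44. Another Atp2a2 probe set was called higher too (3.93), although 3 further ones were not called. Myoglobin (Mb), the oxygen store of muscle, read 1.85, 1.86 and 25.1 in GM and 2291, 1515 and 1838 in DM, a change of 6.07 (SE 0.25, adjusted p = 3.9e-10). Asph yields junctin and an unrelated hydroxylase from one locus. It was called lower on its brightest probe set (-0.65) and on another (-1.02), and higher on 2 others (1.47 and 1.81). Without the low-18S cultures the change on the brightest was -0.49. Ryr3 had a probe set called in each direction.

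Among genes of the acetylcholine receptor and the neuromuscular junction, 9 of 18 were higher and none lower, with a median of 0.70. The gamma subunit Chrng, part of the fetal receptor, read 50.2, 52.0 and 41.8 in GM and 2886, 1921 and 2554 in DM and rose by 5.17 (SE 0.37, adjusted p = 8e-08). The delta subunit Chrnd rose by 3.07, Chrnb1 by 1.89 and Chrna1 by 1.5 (SE 0.17, adjusted p = 1.3e-05). Chrna1 was already at 1427, 1279 and 1549.9 in GM, so the receptor subunits differed in how far they changed. Dok7, the activator of the junction kinase, rose by 1.98, while that kinase, Musk, changed by 0.67 and did not pass the test. Erbb3, a neuregulin receptor, read 56.2, 52.0 and 59.6 in GM and 963, 747 and 912 in DM and rose by 3.55.

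Cell fusion needs the membrane proteins myomaker and myomerger. Myomaker (Mymk) read 5.03, 5.2 and 4.09 in GM and 4330.4, 3149 and 4472 in DM, a change of 7.32 (SE 0.22, adjusted p = 1.7e-11), and myomerger (Mymx) read 10.9, 15.2 and 34.5 in GM and 2665, 3704 and 2293 in DM, a change of 6.19 (SE 0.35, adjusted p = 4.6e-10). Neither gene's groups overlapped. Across the whole list of adhesion and fusion genes the calls were mixed, with 9 of 35 higher, 13 lower and a median of 0.04. The membrane-shaping protein Bin1 (2.13), dysferlin (Dysf, 1.92) and M-cadherin (Cdh15, 1.57) were higher. The tetraspanin Cd9 read 1879, 1859.5 and 2042 in GM and 584, 632 and 618 in DM and fell by 1.62 (SE 0.13, adjusted p = 2e-07). Annexin A1 (Anxa1, -1.34), Vcam1 (-1.3) and the Rac activators Dock1 (-0.97) and Dock5 (-1.28) were also lower.

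Short stretches before the start sites of these genes are shown because the MyoD family binds E-boxes and serum response factor binds CArG boxes. The sequences are the 250 bases before the RefSeq start in GRCm38.p6, written 5′ to 3′ on the gene's own strand, and capitals mark an E-box CAGCTG or a CArG box.
Acta1, chr8:123894776-123895025, minus strand: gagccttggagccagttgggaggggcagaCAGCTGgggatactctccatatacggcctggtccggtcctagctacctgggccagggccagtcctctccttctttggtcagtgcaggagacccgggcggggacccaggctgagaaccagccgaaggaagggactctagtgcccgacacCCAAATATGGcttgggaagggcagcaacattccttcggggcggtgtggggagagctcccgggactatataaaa
Ckm, chr7:19410844-19411093, plus strand: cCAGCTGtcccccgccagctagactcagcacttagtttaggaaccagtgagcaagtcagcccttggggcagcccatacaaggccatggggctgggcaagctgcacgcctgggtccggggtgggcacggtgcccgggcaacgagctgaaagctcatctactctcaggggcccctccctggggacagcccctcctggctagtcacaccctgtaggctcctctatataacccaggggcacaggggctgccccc
In Acta1 the E-box ends 216 bases and the CArG box 64 bases before the start, and in Ckm the E-box begins 249 bases before it. The same stretch of Myog, not printed, held no match to CAGCTG or to the patterns searched for the CArG box and the MEF2 box. Of the 36 thick and thin filament genes called higher, 31 had a promoter in the table. CAGCTG, which reads the same on both strands, was found in 13 of these (41.9 percent), against 12.1 percent of the 10351 tested genes with a promoter and 13.8 percent of all genes called higher. The MEF2 box was found in 6 (19.4 percent against 1.69 percent) and the CArG box in 3 (9.68 percent against 1.11 percent). A match describes the letters only.

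The inhibitors of differentiation did not move as one group: of 30 tested, 6 were higher and 8 lower, with a median of -0.21. The 3 tested Id genes all fell. Id3 read 1185, 1204 and 1169.5 in GM and 126, 112 and 138 in DM, a change of -3.06 (SE 0.22, adjusted p = 9.3e-08), Id1 read 510.3, 486 and 565 in GM and 102, 131 and 142 in DM, a change of -1.91 (SE 0.14, adjusted p = 1e-07), and Id2 fell by 2.62 on the log2 scale. The GM and DM cultures were fully separated for each. Twist2 (-1.26) and Snai2 (-1.04), repressors that compete at E-boxes, were lower too. Genes of the Notch pathway, which restrains differentiation in neighbouring cells, were called in both directions. The ligand Dll1 read 78.6, 105 and 139 in GM and 517, 520.0 and 415 in DM and rose by 2.0 (SE 0.19, adjusted p = 1.6e-06), the receptor Notch1 rose by 1.78 (SE 0.15, adjusted p = 4.1e-07), and the targets Hey1 and Heyl by 1.42 and 1.17, while Hes1 (0.26) was not called and Notch3 (-0.58) and the ligand Jag2 (-0.71) were lower.

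Regulators of the exit from the cell cycle changed in both directions, 7 of 26 higher and 7 lower. The CDK inhibitor p57 (Cdkn1c) read 65.3, 80.7 and 80.3 in GM and 3806, 2741 and 3862 in DM, a change of 5.18 (SE 0.19, adjusted p = 1.3e-10). The inhibitor p21 (Cdkn1a) read 487, 458 and 674 in GM and 7217, 4046 and 5923 in DM, a change of 3.34 (SE 0.23, adjusted p = 7.3e-08). No DM culture came near the GM range for either. The retinoblastoma gene Rb1 rose by 2.42, whereas its relatives Rbl1 (-1.05) and Rbl2 (-0.9) fell. The call on Rbl2 was lost when GM_5mM-1 (adjusted p = 0.067), GM_5mM-2 (0.091), DM_5mM-1 (0.11) or DM_5mM-3 (0.072) was left out. Cyclin D3 (Ccnd3), the D cyclin of differentiated muscle, read 565, 595 and 688 in GM and 1875, 1489 and 2245 in DM and rose by 1.56 (SE 0.17, adjusted p = 8.2e-06). Cyclin D1 (Ccnd1), which responds to growth factors, read 616, 508 and 718 in GM and 245, 214 and 310.2 in DM and fell by 1.2 (SE 0.19, adjusted p = 0.00027). Cdk6 (-1.43) and Cdk4 (-0.72) were lower, and Cdk2 (1.17) and E2f2 (2.08) higher. Cdkn1b, which encodes p27, was not called (-0.41).

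Genes of mitosis and cytokinesis were lower almost without exception: 48 of 50 tested genes were called lower and none higher, where 13.7 percent of all genes were lower. Their median was -1.90. Ube2c, which marks mitotic regulators for destruction, read 1101, 1064 and 1104 in GM and 75, 81.0 and 109 in DM, a change of -3.37 (SE 0.13, adjusted p = 2e-10). Kif2c, a kinesin that takes apart microtubules, read 373, 399 and 352 in GM and 19.4, 23.9 and 23.5 in DM, a change of -3.22 (SE 0.15, adjusted p = 1.1e-09). Cenpa, the histone of centromeres, fell by 3.1, securin (Pttg1) by 3.04 and the proliferation antigen Mki67 by 2.6. Cyclin B2 (Ccnb2), Cdc20, Plk1, Bub1b and Aurka changed by -2.82, -2.6, -2.62, -2.62 and -1.81. The 2 genes not called were Bub3 (-0.12) and Mybl2 (0.09). Without the low-18S cultures 45 of the 50 were called lower. Kif20b, whose intensity was 752, 705 and 650.2 in GM and 95.2, 103 and 45.5 in DM, was not among those 45 (adjusted p = 0.06).

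DNA replication genes changed by smaller amounts. Of 39 tested S phase genes, 19 were lower and 1 higher, with a median of -0.58, and without the low-18S cultures 9 were lower and none higher. Thymidine kinase (Tk1) read 795, 789.8 and 836 in GM and 189, 179 and 325 in DM, a change of -1.77 (SE 0.19, adjusted p = 7.1e-06). The clamp loader subunits Rfc5 and Rfc3 fell by 1.34 and 1.12. Of the 6 subunits of the replicative helicase, Mcm2 to Mcm7, only Mcm6 was called (-0.69). The others lay between -0.58 and -0.03. Pcna, the sliding clamp, changed by -0.19 and did not pass the test. Rpa2 was called higher (0.56), although not without the low-18S cultures (adjusted p = 0.31). Among chromatin proteins of dividing cells, 7 of 19 were lower and 2 higher. Hmga2, an architectural protein of embryonic and growing cells, read 738, 906 and 579 in GM and 81.2, 54.3 and 67.3 in DM and fell by 3.11. Hmgb2 fell by 1.78, while lamin B2 (Lmnb2) rose by 1.07.

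Promoters of mitotic genes are shown because many hold CCAAT boxes, bound by NF-Y, and a CHR element, through which repressor complexes act in cells that have stopped dividing. Capitals mark CCAAT or TTTGAA on either strand, in the same 250 bases and build as above.
Ube2c, chr2:164769679-164769928, plus strand: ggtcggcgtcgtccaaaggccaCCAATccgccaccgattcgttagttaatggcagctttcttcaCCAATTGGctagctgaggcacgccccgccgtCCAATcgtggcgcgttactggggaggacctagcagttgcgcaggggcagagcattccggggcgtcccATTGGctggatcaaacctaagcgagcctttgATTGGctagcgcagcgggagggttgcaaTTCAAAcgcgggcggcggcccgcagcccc
Ccnb2, chr9:70421555-70421804, minus strand: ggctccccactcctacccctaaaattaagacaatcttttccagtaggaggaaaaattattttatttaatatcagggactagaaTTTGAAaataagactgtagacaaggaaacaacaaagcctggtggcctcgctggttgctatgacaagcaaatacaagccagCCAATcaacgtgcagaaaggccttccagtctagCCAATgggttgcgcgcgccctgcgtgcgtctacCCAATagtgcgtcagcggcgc
Ube2c holds 6 CCAAT matches, of which one pair on opposite strands overlaps, and a TTTGAA match 29 to 24 bases before the start. Ccnb2 holds CCAAT matches that begin 87, 54 and 21 bases before the start. Of the 48 mitosis and cytokinesis genes called lower, 40 had a promoter in the table. CCAAT was found in 29 of them (72.5 percent), against 35.7 percent of tested genes and 35.1 percent of all genes called lower. TTTGAA was found in 15 (37.5 percent), against 10.7 percent and 11.1 percent.

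Energy metabolism changed gene by gene, and in several families one member rose while its relative fell. In the phosphagen and purine nucleotide system, which buffers ATP in muscle, 6 of 12 genes were higher and 2 lower, with a median of 1.03. Muscle creatine kinase (Ckm) read 36.6, 40.1 and 70.2 in GM and 2627, 1921 and 2562 in DM, a change of 5.13 (SE 0.23, adjusted p = 7.7e-10), and the brain form Ckb read 397, 430.3 and 324 in GM and 2594, 1956 and 2533 in DM, a change of 2.56 (SE 0.2, adjusted p = 2.4e-07). Both isoforms thus rose. Adenylosuccinate synthetase had its muscle form Adssl1 at 1.35 and its general form Adss at -1.25. In glycogen metabolism 4 of 14 were higher and none lower. Pygm, the muscle phosphorylase, read 2.65, 4.71 and 26.4 in GM and 341, 315 and 213 in DM and rose by 3.36 (SE 0.25, adjusted p = 1.6e-07), glycogen synthase (Gys1) rose by 1.57 and the phosphorylase kinase subunit Phkb by 1.48.

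In glycolysis and glucose uptake 3 of 24 genes were higher and 7 lower, with a median of -0.30. The muscle phosphoglycerate mutase Pgam2 read 4.92, 7.33 and 3.71 in GM and 197, 178 and 166 in DM and rose by 2.98 (SE 0.2, adjusted p = 4.1e-08), while Pgam1 fell by 0.72. The muscle phosphofructokinase Pfkm rose by 1.08, while Pfkp and Pfkl fell by 1.23 and 1.0. The enolase Eno3 was called higher (0.74, adjusted p = 0.042), but not when GM_5mM-1 (0.089), GM_5mM-2 (0.15), DM_5mM-1 (0.15) or DM_5mM-3 (0.16) was left out. Glucose transporter 1 (Slc2a1) read 213, 222 and 304 in GM and 164, 131 and 143 in DM and fell by 0.67 (SE 0.16, adjusted p = 0.0062). The insulin-responsive transporter Slc2a4 (-0.42), hexokinase 2 (Hk2, 0.13) and Txnip (0.02), a gene whose transcription follows glucose, did not pass the test. Hexokinase 1 (Hk1) was lower (-0.63), but not without the low-18S cultures (adjusted p = 0.051). In the pentose phosphate and hexosamine pathways 4 of 15 genes were lower and none higher, led by transketolase (Tkt, -1.22) and Pgd (-1.08). The calls on Pgls (-0.52) and Oga (-0.8) were lost without the low-18S cultures (adjusted p = 0.16 and 0.058).

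**Figure D3:**
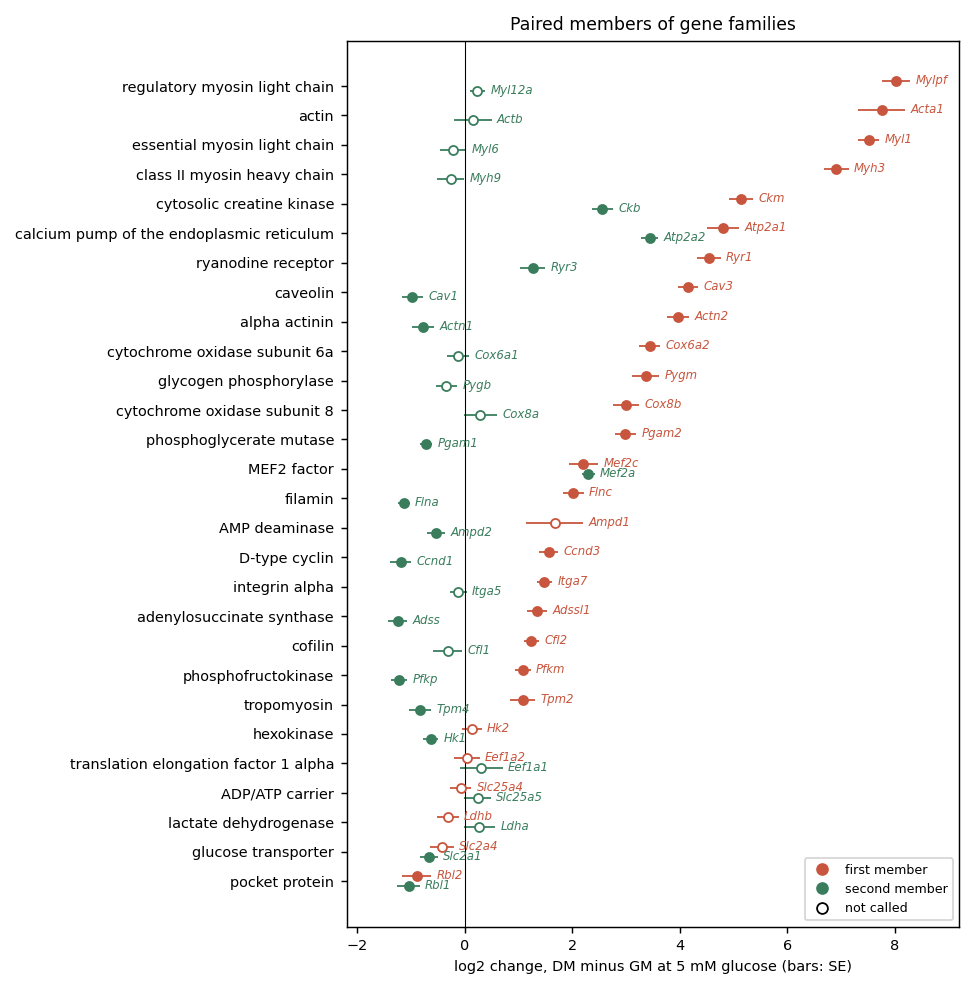
Log2 change, DM minus GM at 5 mM glucose, with its SE, of the gene family pairs in which both members were tested, the first member of a pair in one colour and the second in another, filled where called. In 8 pairs the first member was called higher and the second lower, as with Pgam2 (2.98) and Pgam1 (-0.72) or Actn2 (3.97) and Actn1 (-0.78).

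The 36 pairs of related genes were chosen so that the first is in most cases the form enriched in differentiated muscle. In 8 the first member was higher and the second lower, and in 9 the first was higher and the second not called. In 4 both were higher, in 1 both were lower, in 3 only the second was lower, and in 3 neither was called. The remaining pairs had a member that was not tested. Over all genes tested, 9.5 percent were higher and 13.7 percent lower. The 8 pairs called in opposite directions were Pgam2 and Pgam1, Pfkm and Pfkp, Actn2 and Actn1, Flnc and Flna, Cav3 and Cav1, Tpm2 and Tpm4, Adssl1 and Adss, and Ccnd3 and Ccnd1. Filamin C (Flnc), the muscle form of the actin crosslinker, read 289, 270.1 and 355 in GM and 1589, 948 and 1402 in DM, a change of 2.02 (SE 0.19, adjusted p = 1.9e-06). Filamin A (Flna) read 1489.7, 1477 and 1678 in GM and 689.7, 641 and 742 in DM, a change of -1.14 (SE 0.11, adjusted p = 2e-06). The fall of Actn1 was not called without the low-18S cultures (adjusted p = 0.065). No difference between the members of a pair was itself tested.

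In the respiratory chain of mitochondria 10 of 58 genes were higher and none lower, with a median of 0.20, where 9.5 percent of all genes were higher and 13.7 percent lower. The 2 largest rises were muscle forms of cytochrome oxidase: Cox6a2 read 80.2, 64.3 and 90.8 in GM and 1218, 779.6 and 1188 in DM and rose by 3.44 (SE 0.19, adjusted p = 8.3e-09), and Cox8b rose by 2.99 (SE 0.24, adjusted p = 3.2e-07). Their counterparts Cox6a1 (-0.13) and Cox8a (0.29) were not called. With the 18S class as a block 14 genes of the chain were higher and 3 lower, among them Cox6a1 (adjusted p = 0.012). The median of the chain was then 0.05, and it was 0.15 without the low-18S cultures, where fewer genes were called higher. In the TCA cycle with pyruvate dehydrogenase, 6 of 32 genes were higher and 5 lower, and the number lower lies near the share of 13.7 percent over all genes. Fewer were called either way without the low-18S cultures. The median was -0.03, and -0.01 without those cultures. Pdk4, the kinase that switches off pyruvate dehydrogenase, read 203, 244 and 178 in GM and 32.5, 33.4 and 40.4 in DM, a change of -2.04 (SE 0.18, adjusted p = 8.6e-07). Pyruvate carboxylase (Pcx) rose by 1.07. The rise of the dehydrogenase component Pdhx (1.26) and the fall of malic enzyme Me2 (-1.03) were not called without the low-18S cultures (adjusted p = 0.073 and 0.1).

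For fatty acids, 4 of 31 genes of oxidation and lipid droplets were higher and 8 lower, where 9.5 and 13.7 percent of all genes were. The median was -0.06. Cpt1a, the gate for fatty acid entry into mitochondria, read 669, 744 and 557 in GM and 171, 191 and 154 in DM, a change of -1.81 (SE 0.14, adjusted p = 2.8e-07). Plin2, the coat of lipid droplets, fell by 2.12 (SE 0.15, adjusted p = 9.6e-08). The medium-chain dehydrogenase Acadm (-1.38) and Angptl4 (-1.4) were lower. Fabp3, the fatty acid carrier of heart and muscle, rose by 2.41 (SE 0.21, adjusted p = 5.8e-07), and the monoacylglycerol lipase Mgll by 1.7. Cholesterol and fatty acid synthesis had 18 of 33 genes higher and 1 lower, with a median of 0.74. Msmo1, a sterol demethylase subunit, read 266, 182 and 195 in GM and 956, 1956 and 945 in DM, a change of 2.41 (SE 0.25, adjusted p = 4.5e-06). Hmgcs1, the synthase that supplies the pathway, read 1064, 1049 and 1436 in GM and 4075, 2768 and 4246 in DM, a change of 1.62 (SE 0.19, adjusted p = 1.4e-05). Enzymes from Mvk (1.49) and Idi1 (1.6) through Fdft1 (1.47) and Cyp51 (1.44) to Dhcr7 (1.07) were higher, as was their transcription factor Srebf2 (0.78). Scap, the escort of that factor, fell by 1.02.

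One promoter of the cholesterol group is shown because NF-Y at CCAAT boxes assists the sterol-responsive factors. Capitals mark CCAAT.
Msmo1, chr8:64733579-64733828, minus strand: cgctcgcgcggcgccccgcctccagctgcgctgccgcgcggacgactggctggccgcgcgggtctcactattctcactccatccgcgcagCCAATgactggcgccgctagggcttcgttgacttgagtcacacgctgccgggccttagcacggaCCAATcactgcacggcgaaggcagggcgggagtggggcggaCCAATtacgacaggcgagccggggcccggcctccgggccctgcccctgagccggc
Its 3 matches begin 160, 96 and 55 bases before the start. Of the 18 genes called higher, 14 had a promoter in the table and 13 of these held CCAAT on either strand (92.9 percent), against 35.7 percent of tested genes and 36.4 percent of all genes called higher.

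The unfolded protein response, which raises the folding capacity of the endoplasmic reticulum, was divided: 11 of 32 genes were higher and 7 lower. The luminal chaperone BiP (Hspa5) read 2161, 2300.1 and 2005 in GM and 875, 1086 and 1063 in DM, a change of -1.09 (SE 0.16, adjusted p = 0.00011). Another Hspa5 probe set on MA was called lower too (-1.08), and a further one, on MB, was not called (0.72). Creld2 (-1.37), Edem1 (-0.83), Xbp1 (-0.75) and Manf (-0.57) were also lower. Dnajb11, a co-chaperone of BiP, read 234, 259.9 and 269 in GM and 1487, 1120.4 and 1427 in DM and rose by 2.31 (SE 0.17, adjusted p = 1.5e-07). The protein disulphide isomerases Pdia4, Pdia3 and Pdia6 rose by 1.57, 1.01 and 0.86 and calreticulin (Calr) by 0.67. Among ATF4 targets and amino acid supply, 10 of 32 were higher and 5 lower. Fgf21, a hormone that stressed muscle secretes, read 5.59, 6.81 and 9.46 in GM and 172, 280.0 and 304 in DM, a change of 3.28 (SE 0.22, adjusted p = 6e-08). The amino acid transporter Slc7a5 rose by 1.58 and its heavy chain Slc3a2 by 0.88, while Cebpb (-1.25) and Aldh18a1 (-1.01), a proline synthesis enzyme, fell. Atf4 itself was not called (0.26), and neither were Ddit3 (-0.31) and Trib3 (-0.49).

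Of 26 genes of oxidative stress and heat shock, 4 were higher and 8 lower. Those that fell included the NRF2 targets Gclm (-1.68), Nqo1 (-1.63) and Srxn1 (-1.11) and the metallothioneins Mt1 (-1.61) and Mt2 (-1.42). Nqo1, a quinone reductase, read 191, 216 and 237 in GM and 56.6, 58.2 and 53.2 in DM. The chaperone Hsph1 rose by 1.79 (SE 0.14, adjusted p = 2.9e-07), and mitochondrial superoxide dismutase (Sod2) by 0.7. The 2 ubiquitin ligases best known from muscle wasting went opposite ways: Trim63 (MuRF1) read 4.28, 12.7 and 13.4 in GM and 667, 943 and 444 in DM and rose by 4.5 (SE 0.38, adjusted p = 1.3e-07), while Fbxo32 (atrogin-1) fell by 0.96. Among 25 genes of FoxO, ubiquitin ligases and autophagy 4 were higher and 7 lower, where 9.5 and 13.7 percent of all genes were. The median was -0.04, and -0.06 without the low-18S cultures, where fewer were called. The autophagy genes Map1lc3a (1.47) and Map1lc3b (-0.61) also moved apart.

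Among genes that respond to serum 12 of 30 were lower and 4 higher, with a median of -0.25. Egr1, an immediate early transcription factor, read 1747, 1421 and 1631 in GM and 301, 357 and 376 in DM, a change of -2.15 (SE 0.14, adjusted p = 3.8e-08). Ier3 fell by 2.02, Fosl1 by 1.94 and the ERK phosphatases Dusp4 and Dusp6 by 1.76 and 1.07. Fos (-0.25), Jun (0.08) and Myc (0.08) did not pass the test, and Spry1, an inhibitor of receptor signalling, rose by 1.35. YAP and TEAD targets gave 6 higher and 6 lower of 27, with Igfbp3 (2.15) and Ankrd1 (1.53) at one end and Axl (-1.49) and F3 (-1.6) at the other.

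Secreted growth regulators showed large changes in both directions. In the BMP, TGF beta and activin pathways 5 of 28 genes were higher and 10 lower, with a median of -0.42. Matrix Gla protein (Mgp), which binds BMPs and prevents calcification, was among the genes with the largest falls. Its intensity was 2594, 2505 and 2616 in GM and 136, 123 and 181 in DM, and the change was -3.97 (SE 0.19, adjusted p = 1.3e-09). The BMP antagonist Grem1 fell by 2.67 and the ligand Bmp4 by 2.18. Follistatin (Fst), which binds activins and myostatin, read 11.5, 13.0 and 11.8 in GM and 319.5, 324 and 294 in DM and rose by 3.37 (SE 0.29, adjusted p = 5.7e-07). Among IGF and growth factor receptor genes 5 of 27 were higher and 7 lower. Igf2, an autocrine growth factor of differentiating myoblasts, read 26.0, 11.7 and 16.5 in GM and 904, 890.0 and 677 in DM, a change of 4.48 (SE 0.22, adjusted p = 2.2e-09). Its binding proteins differed, with Igfbp3 higher (2.15) and Igfbp2 (-2.19), Igfbp4 (-1.44) and Igfbp6 (-1.83) lower. The receptors Igf1r (-0.54) and Pdgfrb (-1.6) and the adaptor Irs1 (-1.14) were lower.

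Of 20 collagens, the fibres and sheets of the extracellular matrix, 3 were higher and 5 lower, where 9.5 and 13.7 percent of all genes were, so that on 20 genes the count lies near the background. The fibril chains Col1a1 (0.04), Col1a2 (-0.06) and Col3a1 (-0.22) were not called. Col18a1 fell by 1.6 (SE 0.12, adjusted p = 2.1e-07), and the collagen VI chains parted, with Col6a1 (0.92) and Col6a2 (1.45) higher and Col6a3 (-0.68) lower. Col8a2 read 436, 369 and 280.1 in GM and 96.8, 120.1 and 7.12 in DM and fell by 2.3, a call lost without the low-18S cultures (adjusted p = 0.17). With the 18S class as a block 8 collagens rather than 5 were lower. The median of the collagens was -0.14, -0.30 with the block and -0.27 without the low-18S cultures, where fewer were called lower. Among matrix glycoproteins, crosslinkers and proteases 8 of 37 were higher and 15 lower. Lysyl oxidase (Lox), which crosslinks collagen and elastin, read 2209, 2254 and 2026 in GM and 245, 306 and 336 in DM, a change of -2.8 (SE 0.15, adjusted p = 6.2e-09). The basement membrane protein Nid1 fell by 2.12. Adamts5, a protease that clears versican, read 31.6, 25.8 and 5.76 in GM and 316, 270.1 and 200.2 in DM and rose by 2.82 (SE 0.31, adjusted p = 7e-06).

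The non-muscle cytoskeleton had 7 of 36 genes higher and 12 lower. The number called lower was 19 with the 18S class as a block and 16 without the low-18S cultures, where the brightest probe set of Myh9 (adjusted p = 0.0029 with the block) joined. Non-muscle myosin Myh10 read 3609, 3358 and 2655 in GM and 978, 1097 and 699.7 in DM and fell by 1.78 (SE 0.19, adjusted p = 2.3e-06), and the calcium-binding S100a4 fell by 1.94. The tubulins Tubb6 and Tuba4a rose by 2.47 and 1.5, while Tubb5 fell by 1.12. Beta-actin (Actb), often used as a reference gene, read 5701, 5419 and 11260 in GM and 10671, 4793 and 9165 in DM. Its low and high values went with the 18S class and not with the medium. Of 24 splicing regulators 3 were higher and 7 lower, or 7 and 7 with the block. Their median was 0.02, -0.03 with the block and -0.15 without the low-18S cultures, where fewer were called lower. Rbm24, a muscle splicing factor, read 638, 612 and 331 in GM and 7324, 12081 and 10121 in DM, a change of 4.2 (SE 0.24, adjusted p = 5e-10), and Rbm38 rose by 3.01. Ptbp1, the repressor of muscle and neuronal exons, fell by 1.11. Mbnl3 also fell (-1.49), but not without the low-18S cultures (adjusted p = 0.24). Ribosome biogenesis had 10 of 31 genes higher and 1 lower, and no tested gene of the list rose by more than 1.14. Nhp2, a component of pseudouridylation complexes, rose by 1.08 and nucleostemin (Gnl3) by 0.96.

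Of the markers of other cell types few were measurable. Of 9 adipocyte genes 7 were on MA, where their summed intensity was 444 to 531 in GM and 176 to 264 in DM, and Adipoq stayed at or under 4.30. Cebpa, which read 341, 254 and 288 in GM and 52.7, 46.2 and 70.0 in DM, made up much of that sum and fell by 2.04 (SE 0.2, adjusted p = 2.7e-06). Blood and endothelial markers summed to 325 to 397 in GM and 233 to 378 in DM over 10 genes on MA. Pecam1 was at or under 13.4, while Csf1r reached 95 and Adgre1 70. Only 4 of the 10 were tested, and of these Cd14 alone was called (-1.05). The 8 osteoblast and cartilage genes on MA summed to 175 to 281 and 139 to 344. Col2a1 was at or under 4.07, while Sp7 reached 205 in DM_5mM-1. Of the 8 only Sp7 was tested on MA. Over both designs 2 genes of the list were tested, and none was called. The 11 neuronal and epithelial genes summed to 260 to 348 and 136 to 213, with Snap25 and Epcam at or under 5.44 and Krt14 (-1.84) called lower. The part of such cells in the results was not tested. Fewer cells of a kind and less RNA per cell cannot be told apart in these cultures. Interferon and inflammatory genes gave 1 higher and 4 lower of 14, where 9.5 and 13.7 percent of all genes were. The chemokine Cxcl12 read 363, 358 and 405 in GM and 23.7, 46.7 and 52.1 in DM and fell by 2.73.

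Some of the largest changes lay outside these lists. Plagl1, an imprinted zinc finger gene, read 7.87, 5.51 and 3.75 in GM and 2089, 2146 and 1749.8 in DM, a change of 6.29 (SE 0.27, adjusted p = 5.2e-10). The receptor kinase Epha1 read 362, 323 and 372 in GM and 3.13, 6.51 and 4.55 in DM, a change of -3.91 (SE 0.16, adjusted p = 3.7e-10), which was -5.99 with a pseudocount of 1 and -2.6 with 64. Dynap, a membrane protein, fell by 3.46 (SE 0.24, adjusted p = 8.1e-09), from 8423, 7842 and 5550.5 to 551, 872 and 526. Further falls were in Eps8 (-3.36), an actin regulator downstream of growth factor receptors, Aqp1 (-3.06), a water channel, Prkg2 (-3.01), a cyclic GMP dependent kinase, and Ifitm1 (-2.9). All 3 GM cultures lay above all 3 DM cultures for each gene named here as falling.

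At 25 mM glucose the same comparison, made on other cultures, called 1567 genes higher (12.2 percent) and 2048 lower (15.9 percent). Of the 1221 genes higher at 5 mM, 978 were also higher at 25 mM and 3 were lower there. Of the 1756 lower at 5 mM, 1272 were also lower and 4 were higher. The difference between the 2 changes was tested as an interaction, the change at 5 mM minus that at 25 mM. The DM group at 25 mM also held a low-18S culture, DM_25mM-3. It was called for 60 genes (0.467 percent), 16 positive (0.125 percent) and 44 negative (0.342 percent), and for 77 probe sets (0.284 percent), so for most genes no difference in the response was detectable with 3 cultures a group. Mitosis and cytokinesis supplied 7 of the 44, all with a larger fall at 5 mM. Ube2c was 1090.1 ± 22.3 in GM and 88.5 ± 18.4 in DM at 5 mM and 1123 ± 94.0 and 243 ± 20.3 at 25 mM (SD, n = 3). With 5 mM glucose the change was -3.37 and with 25 mM it was -2.12, and these differed by -1.25 (adjusted p = 0.0084), a call lost without the low-18S cultures (adjusted p = 0.092). The median change of the S phase genes was -0.58 at 5 mM and -0.81 at 25 mM, and the 1 interaction called among them was positive.

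Several muscle genes rose less at 5 mM than at 25 mM. Myoglobin (Mb) rose by 6.07 and 7.83, a difference of -1.75 (adjusted p = 0.044), and Actn2, Itgb1bp2, Pgam2, Pfkm and Ckb differed by -1.37, -1.2, -1.37, -1.07 and -1.41. Without the low-18S cultures Mb (adjusted p = 0.0053) and Ckb (0.023) were still called, while Actn2 (0.22), Itgb1bp2 (0.13), Pgam2 (0.16) and Pfkm (0.073) were not. No gene of the thick or thin filament was called. Hspa5 changed sign: its mean was 2156 ± 148 in GM and 1008 ± 115 in DM at 5 mM, and 2088 ± 430.2 and 3140.4 ± 233 at 25 mM (SD, n = 3). The difference was -1.69 (adjusted p = 0.0067). Manf (-1.34) and Ahr (-1.58), the dioxin receptor, were likewise lower in DM at 5 mM and higher at 25 mM. Among collagens Col1a1 (-1.86), Col4a1 (-1.05) and Col4a2 (-0.98) were called, none of them called at 5 mM, with a change at 25 mM of 1.9, 1.1 and 1.14. Of 20 named genes with a called interaction, 7 kept the call without the low-18S cultures.

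**Figure D4:**
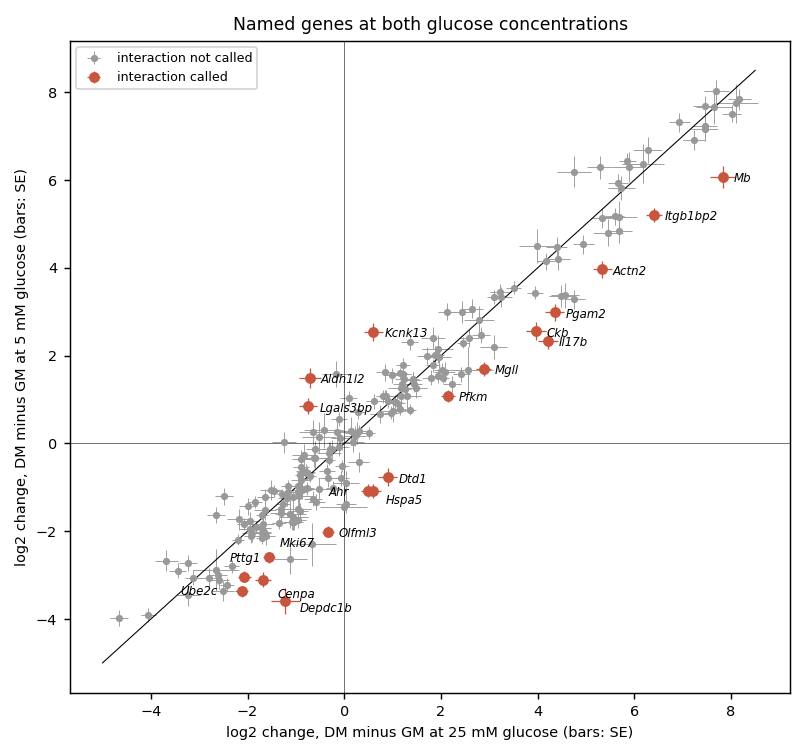
Log2 change of DM against GM at 25 mM glucose (x axis) against that at 5 mM (y axis), one point per named gene with its SE, the genes called in the interaction in colour, and a line of equal change. Ube2c lies at -2.12 and -3.37 and Hspa5 at 0.60 and -1.09.

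Because the media held unequal numbers of low-18S cultures, the change was also taken within each class. The low-18S cultures gave DM_5mM-2 against GM_5mM-1 and GM_5mM-2, and the high-18S cultures gave DM_5mM-1 and DM_5mM-3 against GM_5mM-3. All 1221 genes called higher and all 1756 called lower had the same sign in both classes. With the class as a block in the fit, 1210 and 1728 of them were still called. Myog changed by 6.72 within the low-18S and 7.33 within the high-18S cultures, and Ube2c by -3.45 and -3.34. The median of the mitosis and cytokinesis genes was -1.97 and -1.88, and that of the thin filament genes 3.93 and 3.83. The brightest probe sets of Myh9, Cfl1, Cox6a1 and Ldhb, not called without the block, were called lower with it (adjusted p = 0.0029, 0.0075, 0.012 and 0.0052). Dimmer probe sets of Myh9 (-0.87, adjusted p = 9.3e-05) and Ldhb (-0.6 and -0.84) were called lower without it.

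**Figure D5:**
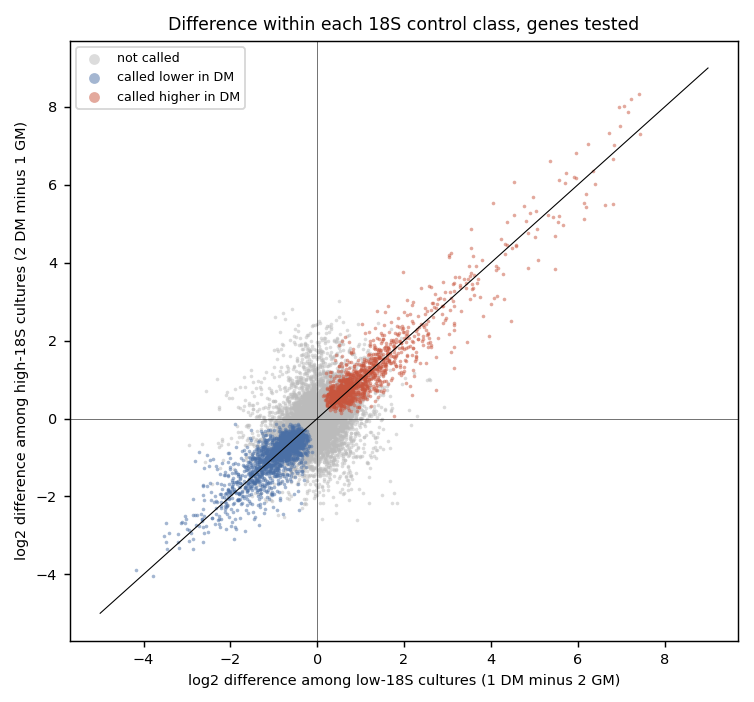
Log2 change of DM against GM at 5 mM glucose within the high-18S cultures against that within the low-18S cultures, one point per tested gene, coloured by its call. All 1221 genes called higher and all 1756 called lower fall in the quadrants of equal sign. The calls came from these same cultures, so this is no separate check.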

How the data were processed

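Total RNA of C2C12 cells was labelled with biotin and hybridised to 2 array designs, MA and MB, per the labels. The authors deposited one linear intensity per probe set and array. The software, scaling and filters behind these intensities are not given in the sources used here, and the values were used as deposited, with the designs kept apart. Control probe sets were dropped. The rest were tested where the mean over the 12 arrays of a design exceeded its 40th percentile. This kept 13575 of 22690 probe sets on MA (above 35.5) and 13506 of 22575 on MB (above 63.7). Symbols came from the platform annotation: 20380 probe sets on MA named one gene, 691 several and 1555 none, and on MB 14661, 245 and 7605, and Entrez IDs of 20351 and 14486 of the one-gene probe sets were found in RefSeq for GRCm38.p6. The brightest tested one-gene probe set stood for a gene, MA preferred (8117 genes on MA, 4734 on MB).

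Log2(intensity + 20) was fitted in R 4.3.3 with limma 3.58.1, helped by statmod 1.5.0, using 4 group means over all 12 arrays of a design and eBayes with a trend (8 residual degrees of freedom, 6.17 prior on MA and 10.4 on MB). Tests were two-sided, with Benjamini-Hochberg adjustment within a design and a threshold of 0.05. The number of arrays limits the precision. The script was tested on simulated data. Within groups, correlations of log2 values between cultures ran from 0.946 to 0.986 (MA) and from 0.772 to 0.907 (MB). Members, gene lists, gene pairs, tests and alternatives were chosen with earlier results of these data known. Named genes were 20 chosen genes, the 15 largest separated rises and falls, up to 4 called members of each list, both genes of each pair, and the 10 largest called interactions. Other list members are named after their values were seen. Alternatives covered the pseudocount, filter, scaling, moderation, array weights, probe set types, blocks on replicate number and 18S class, and leaving out cultures.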

Additional observations from a re-analysis of the deposited data

Results flagged for a closer look

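For 20 named genes the change of DM against GM differed between 5 and 25 mM glucose by the interaction test in limma, at an adjusted p of 0.00083 to 0.049. Values are the log2 change at 5 mM minus that at 25 mM. The low-18S cultures left out below include DM_25mM-3. In these genes of cell division the fall was larger at 5 mM: Ube2c differed by -1.25, Cenpa by -1.43, Mki67 by -1.04, Pttg1 by -0.97 and Depdc1b, which acts in cytokinesis, by -2.38. In these muscle genes the rise was smaller at 5 mM: the difference was -1.75 for Mb, -1.20 for Itgb1bp2, -1.37 for Actn2, -1.37 for Pgam2, -1.07 for Pfkm and -1.41 for Ckb. The lipase Mgll (-1.18) and the cytokine gene Il17b (-1.87) also rose less at 5 mM.

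Changes of opposite sign that were called at both glucose levels were seen for Hspa5 (difference -1.69), Ahr (-1.58) and Dtd1 (-1.67), lower in DM at 5 mM and higher at 25 mM, and for Lgals3bp (1.59), higher at 5 mM and lower at 25 mM. Olfml3 (-1.67) fell further at 5 mM. Aldh1l2, a mitochondrial folate enzyme, rose at 5 mM and was not called at 25 mM (2.20), and the potassium channel gene Kcnk13 rose more at 5 mM (1.94). Without the low-18S cultures 13 of the 20 interactions were no longer called, among them Depdc1b (adjusted p = 0.70), Mgll (0.40), Dtd1 (0.35), Actn2 (0.22) and Ube2c (0.092). The other 7 were still called.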

How the results depend on the processing

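Counts of probe sets and named calls were recomputed under 21 alternatives. Among probe sets 2037 were called higher and 2740 lower. Without the low-18S cultures, which also leaves 1 GM culture at 5 mM, the counts were 1346 and 1453. With the 18S class as a block they were 2736 and 3195, and with array weights 2885 and 3986. A fit on the low-18S cultures alone had a single DM culture at 5 mM. Its residual spread came only from the GM pair, which correlated at 0.986 on MA, so its counts are not given. Leaving out one culture gave 1601 to 1924 higher and 1913 to 2824 lower. Whether the replicate number pairs the cultures could not be told. Deviations from the group means of same-numbered GM and DM cultures correlated at -0.257, 0.521 and 0.303 on MA. On MB they correlated at -0.055, 0.24 and 0.147. On both designs GM and DM cultures of equal 18S class correlated positively and those of unequal class negatively, and GM_5mM-1 went best with DM_5mM-2. With that number as a block the counts were 1860 and 2462. Higher calls were 42.6 percent of all calls and 40.5 to 48.1 percent under the alternatives. The interaction was called for 77 probe sets. This number was 42 with eBayes without trend, 31 with the replicate block, 130 with the 18S class as a block, 17 without the low-18S cultures, 331 with array weights and 28 to 103 when one culture was left out. The cause of these differences was not tested. The interaction could not be fitted with only the 6 arrays of 5 mM or only the low-18S cultures.

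Of 188 named genes called and 20 named interactions, none changed sign under any alternative. Over all probe sets, 2739 of the 2740 called lower and all 2037 called higher kept their sign in both 18S classes, while 1 did not. The classes are made of the same cultures that gave the calls, so this is no separate check. Of the 188 genes, 168 kept the call under every alternative that gave a value. Without the low-18S cultures 16 lost it, namely Actn1, Ampd2, Asph, Capzb, Col8a2, Dtd1, Hk1, Kif20b, Mbnl3, Me2, Oga, Pdhx, Pgls, Pik3ip1, Rpa2 and Tln2. Of the 20 named interactions, 4 kept the call under every such alternative.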

Other observations

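Probe sets of one gene did not always agree. Of 5525 genes with more than 1 tested probe set, 826 had at least 2 called, and in 810 of these the calls were one way, while 16 had probe sets called in both directions. The 16 included the tropomyosins Tpm1 and Tpm3, Asph, Pdlim5, Pdlim7 and Ryr3, which are genes of the sarcomere or its membranes, and Arhgef18, Caprin1, Matr3, Kidins220 and Septin11, which are not. On the 100 probe sets tested on both designs, 29 were called on MA, all 29 had the same sign on MB and 14 were called on both, with a median absolute difference of 0.13 in log2 change.

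Matrix genes held the largest interaction among list members. Mfap4, a microfibril glycoprotein that was not called at 5 mM (0.28), changed by 3.37 at 25 mM, a difference of -3.09 (adjusted p = 0.0006). Ccn2 (-1.83), Fstl3 (-1.36) and Tnc (-1.02) differed in the same direction. The purine nucleotide cycle gene Ampd1 read 29.5, 8.1 and 32.3 in GM and 178, 197 and 34.9 in DM, and its change of 1.67 was not called (adjusted p = 0.072), with DM_5mM-3 close to GM. It was called without that culture (adjusted p = 0.0064).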
